A study of Mus musculus with 3 samples.

Results

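The nuclear genes of the mitochondrial respiratory chain were followed across 3 arrays of C2C12 cells, a line of mouse myoblasts that forms myotubes once serum is lowered. The members were taken by name: every probe whose gene name in the scanner files began with the symbols for complex I (Nduf a, b, c, s and v), complex II (Sdha to Sdhd), complex III (Uqcr), cytochrome c (Cycs), cytochrome c oxidase or complex IV (Cox4 to Cox8) or ATP synthase (Atp5). This gave 82 probes for 81 gene names among the 23473 probes of the array. By complex they were 36 probes of complex I, 1 of its assembly factor Ndufaf1, 4 of complex II, 7 of complex III, 1 of cytochrome c, 15 of complex IV, 2 of the muscle isoforms of complex IV (Cox6a2 and Cox8b) and 16 of ATP synthase. The third muscle isoform, Cox7a1, was found under that name on no probe and was not analysed here. Besides Ndufaf1, the name rule also took in 2 genes that are not respiratory chain subunits: Cox4nb, now called Emc8, and Atp5s, now called Dmac2l.

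The respiratory chain passes electrons from NADH through complex I, or from succinate through complex II, to ubiquinone, then through complex III and cytochrome c to complex IV, which reduces oxygen. Complexes I, III and IV pump protons across the inner mitochondrial membrane, and ATP synthase uses their return to make ATP. A few core subunits are encoded by mitochondrial DNA, whereas all the subunits followed here are nuclear genes. Complex IV has tissue isoforms for some of its small subunits: Cox6a2, Cox7a1 and Cox8b are the forms of heart and skeletal muscle, and Cox6a1, Cox7a2 and Cox8a are the forms found in most other tissues.

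Each condition had 1 array. C2C12-PR was the parental line, left to proliferate for 2 days in 10% fetal bovine serum, and C2C12-DF the same line given 2% horse serum for 2 days so that it would differentiate. C2C12-W4-08 was a blasticidin-selected line, 1 clone, transfected with a V5-tagged Wnt4 cDNA under the CMV promoter, and it was kept for 2 days in the 10% serum medium. All 3 were C2C12 cells, and no clone with an empty vector was among the arrays, so Wnt4, selection and clone cannot be told apart. Without a second array of any condition there was no replicate error and no test: "higher" and "lower" describe these arrays, and a 2-fold ratio is a mark of size. Array and condition cannot be told apart either.

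Signals were spot medians minus the mean of 1750 blank spots, with each array brought to a median ratio of 1 against C2C12-PR, whose own median was set to 25. A probe counted as detected at or above the blank mean plus 2 SD. Of all probes, the C2C12-PR array detected 71.8%, the C2C12-DF array 74.4% and the C2C12-W4-08 array 92.8%, and of the 82 respiratory chain probes they detected 78, 79 and 82. The lowest detected signals were 2.72, 2.35 and 0.697 in the same order. Repeated spots of the 3 positive controls, 24 spots each, gave an SD of the log2 ratio of 0.0914 to 0.157 for C2C12-DF and of 0.175 to 0.519 for C2C12-W4-08, which measures the spread within an array only. The mean log2 ratios of the 3 controls were 0.24, 0.095 and 0.14 for C2C12-DF. For C2C12-W4-08 they were 1.09, -0.58 and -0.78, so the controls did not share a direction there, and the cause was not tested. Over the 48 print blocks, the median log2 ratio ran from -0.30 to 0.23 for C2C12-DF and from -0.77 to 0.50 for C2C12-W4-08. Wnt4 was undetected in C2C12-PR, dim in C2C12-DF at 4.63 and bright at 115 in C2C12-W4-08, which is at least 42.2-fold above the lowest detected signal of C2C12-PR. Myog, a regulator of muscle differentiation, had signals of 46.5 in C2C12-PR and 961 in C2C12-DF, and a log2 ratio of -0.95 in C2C12-W4-08. Acta1, skeletal muscle actin, had signals of 131, 6099 and 163 on the C2C12-PR, C2C12-DF and C2C12-W4-08 arrays, and the myoblast markers Myod1, Myf5, Des and Cdh15 were detected on every array but at unequal levels. Cdh15 went from a signal of 704 while proliferating to 1162 while differentiating, and was 93.8 in the Wnt4 clone, where the log2 ratios were -2.91 for Cdh15, -1.47 for Myod1, -0.55 for Des and 0.94 for Myf5. The markers of other cell types Pecam1 and Adipoq were detected on no array, and the highest signal among the 7 such markers was 15.1, for Sox10 in C2C12-DF.

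In C2C12-DF, most respiratory chain genes were higher than in C2C12-PR by a small amount. The log2 ratio had a median of 0.44, which is 1.36-fold, over the 77 members detected on both arrays, with quartiles of 0.24 and 0.62. The ratio was above 1 for 71 of the 77 members (92.2%), against 50% of all 15917 probes detected on both arrays. At least 1.5-fold higher were 21 members (27.3%), against 13.7% of all probes, and none was at least 1.5-fold lower, against 13.6%. Only Cox8b and Atp5s were at least 2-fold higher (4.91% of all probes were), and no member was at least 2-fold lower (4.54% of all probes were). Cox6a2, undetected in C2C12-PR, gave a bound above 2-fold. The share of members above the median probe depends on the processing. It was 71.4% (55 of 77) with normexp, a model-based background correction, and 79.2% (61 of 77) with the local background. Single subunits could then lie far from the median, as with normexp Ndufs1 had a log2 ratio of -1.59 and Uqcrh 1.38. In RNA of whole cultures, a higher level per cell and more cells of a kind that has the RNA cannot be told apart.

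In C2C12-W4-08 the members had a smaller median, and they were spread more widely, as were all probes (quartiles of -0.50 and 0.49, against -0.34 and 0.34 in C2C12-DF). The median log2 ratio to C2C12-PR was 0.14, or 1.10-fold, over 78 members, with quartiles of -0.13 and 0.50 and a range of -1.30 to 1.94. That direction depends on the processing: the median was -0.17 with normexp, a model-based background correction, and lay 0.15 below that of all probes with quantile normalization. The ratio was above 1 for 51 of the 78 (65.4%), against 50% of 16682 probes. At least 1.5-fold higher were 12 members, 15.4%, against 21% of all probes, and at least 1.5-fold lower were 7, or 8.97%, against 21.9%. Those at least 2-fold higher were Atp5a1, Atp5s and Cox8b (8.55% of all probes were), and Ndufb11 was the single one at least 2-fold lower (11% of all probes were). Cox6a2 and Ndufc1, both undetected in C2C12-PR, gave bounds above 2-fold. The log2 bound of Ndufc1 was 1.11, and it fell to 0.44 with normexp. The rescaled deposited table, which holds a value for Ndufc1 on both arrays, gave a log2 ratio of 0.98. Bounds were not counted for all probes, and the C2C12-W4-08 array detected more of them, 92.8% against 71.8% in C2C12-PR. Because both comparisons use the C2C12-PR array, an error of that array moves both ratios of a gene the same way. Of the 77 members detected on all 3 arrays, 47 were higher than C2C12-PR in both, 24 in C2C12-DF only, 4 in C2C12-W4-08 only (Cycs, Atp5g1, Cox4i2 and Cox4nb), and 2 (Ndufb2 and Ndufs1) were lower in both. With normexp these counts were 25, 30, 4 and 18 in the same order. The same classes were not counted for all probes, so these counts cannot be read as a trait of the members.

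**Figure D1:**
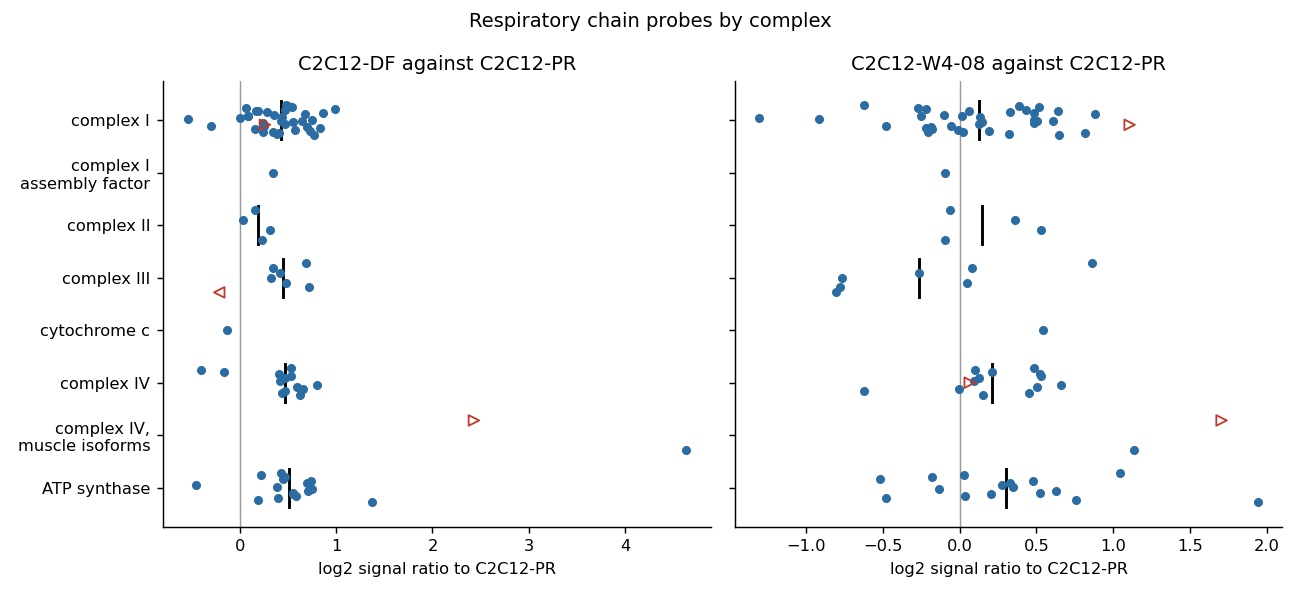
Log2 ratio of each respiratory chain probe to C2C12-PR by complex, with C2C12-DF on the left and C2C12-W4-08 on the right, on different horizontal scales. Blue points are probes detected on both arrays, red triangles are bounds where 1 array did not detect the probe and point to the side on which the ratio lies, and black bars are medians of complexes with more than 2 probes. In C2C12-DF most points of every complex lie right of 0 with Cox8b far out at 4.63, whereas in C2C12-W4-08 they lie on both sides, from -1.30 to 1.94.

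Many of the members are bright: 74 had a signal of at least 20 on all 3 arrays and 68 a signal of at least 100. The ratios were therefore also read against bright probes, first above a limit of 100 and then in bins of mean signal. Where both arrays gave a signal of at least 100, the median log2 ratio in C2C12-DF was 0.46 for 69 members and 0.045 for all 3518 probes. There, 64 of the 69 members had a ratio above 1 (92.8%, against 54.1% of all), 19 were at least 1.5-fold higher (27.5%, against 11.2%) and 0 were at least 1.5-fold lower (9.47% of all were). In C2C12-W4-08 the same limit gave medians of 0.15 for 68 members and 0.013 for 3429 probes. In that comparison 44 members had a ratio above 1 (64.7%, against 51.1%), 9 were at least 1.5-fold higher (13.2%, against 14.5%) and 5 were at least 1.5-fold lower (7.35%, against 14.7%). In C2C12-DF brighter probes as a whole sat slightly above 0. By mean signal, the 27 members between 500 and 1000 had a median of 0.50 against 0.12 for 468 probes, and the 12 members at 2000 or more had 0.46 against 0.21 for 282 probes. The 17 members between 100 and 500 had a lower median of 0.15, against 0.0092 for 2923 probes. Most bright probes lay in that bin and most members in brighter ones, so the limit of 100 alone did not match them for brightness.

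**Figure D2:**
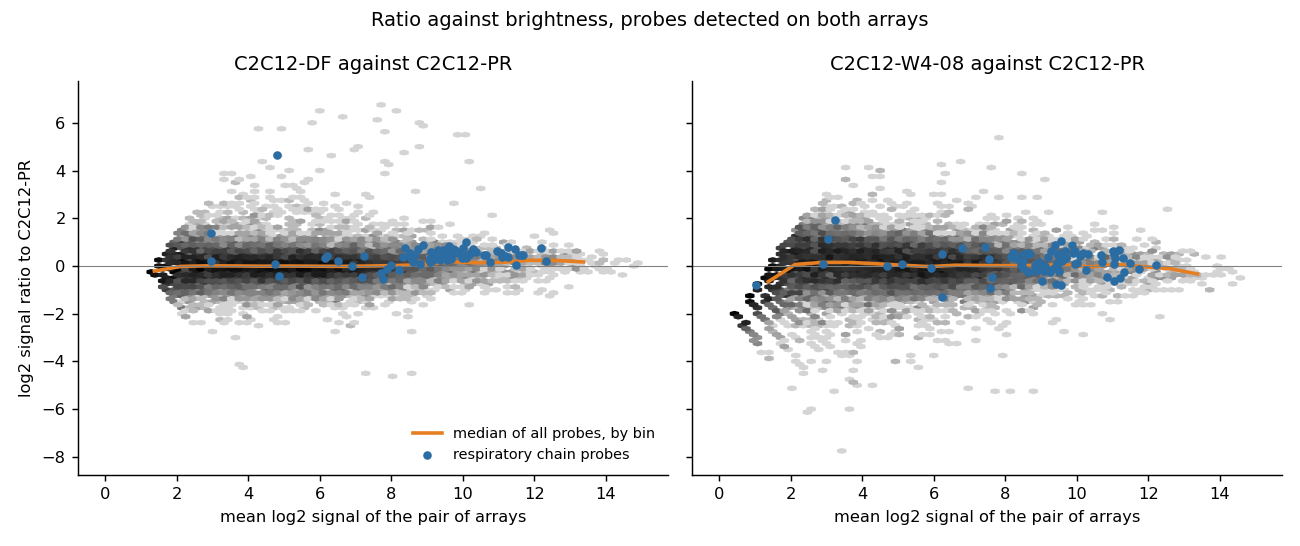
Log2 ratio to C2C12-PR against the mean log2 signal of the 2 arrays, for probes detected on both, with C2C12-DF on the left and C2C12-W4-08 on the right. Grey shading counts all probes on a log scale, the orange line is their median in bins of brightness, and blue points are the respiratory chain probes. In C2C12-DF the members lie mostly above the line at the bright end (median 0.50 against 0.12 at mean signals of 500 to 1000), and in C2C12-W4-08 they scatter around it.

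The muscle isoforms of complex IV held the largest ratios of the group in C2C12-DF. Cox8b, the muscle form of the small subunit VIII, was dim at 5.61 in proliferating parental cells, reached 139 in differentiating C2C12-DF and stood at 12.3 in the Wnt4 clone. Its signal was thus 24.8-fold higher in C2C12-DF (log2 ratio 4.63) and 2.20-fold higher in C2C12-W4-08 (1.14). The second value rests on dim spots: it was 0.90 with ratios centred within print blocks, 0.42 with the local background and 0.17 with normexp. The ratio in C2C12-DF has the same dim C2C12-PR spot as its base, and it was 3.82 with the local background, 2.06 with normexp, at least 2.79 where a signal of 20 was asked for and at least 0.89 with the spot mean. Cox6a2, the muscle form of subunit VIa, was undetected in C2C12-PR, with signals of 14.7 and 8.88 on the C2C12-DF and C2C12-W4-08 arrays. Against the lowest detected signal of C2C12-PR these were at least 5.39-fold and 3.26-fold higher. With normexp the bounds on the log2 scale were 0.89 and 0.61, and with the local background 1.42 and 0.39, and of these only 1.42 passed the 2-fold mark. The deposited table does hold a value for Cox6a2 in C2C12-PR, and after rescaling it gave log2 ratios of 3.46 and 2.77.

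The ubiquitous partners had smaller ratios in C2C12-DF on the same arrays. Cox8a had signals of 1587, 2441 and 1766 in the order proliferating, differentiating and Wnt4 clone, with log2 ratios of 0.62 and 0.15. Cox6a1 had signals of 2725, 3761 and 2972, with log2 ratios of 0.46 and 0.12. Cox7a2, the partner of the isoform that had no probe, had signals of 1066, 1613 and 1513, with log2 ratios of 0.60 and 0.51. All of these ubiquitous forms were brightest in C2C12-DF, as was Cox8b, and none passed 2-fold. With normexp or the local background, however, all of them had a higher ratio in C2C12-W4-08 than in C2C12-DF (for Cox8a, 0.29 against 0.16 and 0.75 against 0.43), and in C2C12-W4-08 the ratio of Cox8a then exceeded that of Cox8b. Cox7a2l, a relative of Cox7a2 that helps join complexes III and IV into supercomplexes, had signals of 551, 867 and 549. Its log2 ratios were 0.66 and -0.0036, and the second was 0.66 with print blocks centred. For subunit IV, the general form Cox4i1 had signals of 1795, 2590 and 2509, with log2 ratios of 0.53 and 0.48. Cox4i2, a form known from lung and from cells short of oxygen, had 33.3, 25.2 and 35.6, with log2 ratios of -0.40 and 0.10. The testis forms Cox6b2 and Cox8c were detected in C2C12-W4-08 only, at signals of 2.85 and 1.13, where the lower blank spots put the detection limit lower.

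**Figure D3:**
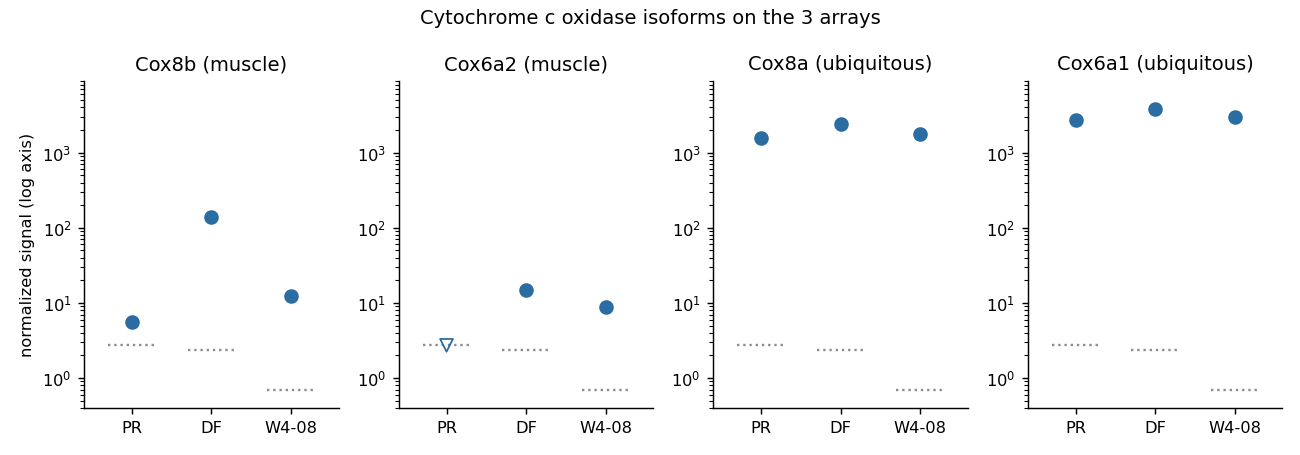
Normalized signal, on a log axis, of the muscle isoforms Cox8b and Cox6a2 and of their ubiquitous partners Cox8a and Cox6a1 on the C2C12-PR, C2C12-DF and C2C12-W4-08 arrays, 1 value per array. The dotted line is the lowest detected signal of each array, and the open triangle marks a probe that was not detected there, drawn at that line. Cox8b goes from 5.61 to 139 between C2C12-PR and C2C12-DF, while Cox8a goes from 1587 to 2441, and levels of different probes are not comparable.

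The promoters of the 2 forms of subunit VIII, which lay far apart in ratio in C2C12-DF, and of Cox6a1 are shown. No window was available for Cox6a2, so Cox8b is the only muscle isoform shown. The RefSeq windows of assembly GRCm38.p6, from 250 bases before to 50 after the start site, are Cox8b at chr7:140900397-140900696, Cox8a at chr19:7217567-7217866 and Cox6a1 at chr5:115348909-115349208, all on the minus strand and written 5′ to 3′. Capitals mark matches, on either strand, to 4 motifs: the E-box core CAGCTG bound by myogenic factors, CCGGAAG bound by ETS factors such as Gabpa, GCGCATGC bound by Nrf1, and AAGGTCA bound by estrogen-related receptors.
Cox8b: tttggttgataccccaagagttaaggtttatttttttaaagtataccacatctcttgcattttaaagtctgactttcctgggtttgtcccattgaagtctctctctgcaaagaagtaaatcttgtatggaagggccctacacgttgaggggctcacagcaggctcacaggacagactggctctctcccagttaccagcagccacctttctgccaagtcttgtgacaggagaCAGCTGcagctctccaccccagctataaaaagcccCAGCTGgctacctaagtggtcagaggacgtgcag
Cox8a: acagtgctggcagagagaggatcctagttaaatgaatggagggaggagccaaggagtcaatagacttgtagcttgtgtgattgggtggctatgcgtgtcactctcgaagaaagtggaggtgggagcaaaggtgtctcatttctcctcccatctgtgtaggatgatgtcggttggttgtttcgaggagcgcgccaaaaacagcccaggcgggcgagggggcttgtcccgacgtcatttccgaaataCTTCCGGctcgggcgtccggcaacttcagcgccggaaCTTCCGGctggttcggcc
Cox6a1: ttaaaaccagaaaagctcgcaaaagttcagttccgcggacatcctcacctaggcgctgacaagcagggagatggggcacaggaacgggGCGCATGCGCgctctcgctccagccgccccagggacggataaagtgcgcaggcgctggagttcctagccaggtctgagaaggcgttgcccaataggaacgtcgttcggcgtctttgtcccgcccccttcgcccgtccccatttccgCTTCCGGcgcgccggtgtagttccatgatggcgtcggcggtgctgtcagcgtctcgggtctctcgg

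In the Cox8b window the only matches were 2 copies of CAGCTG, which begin 19 bases before and 16 bases after the start site. The Cox8a window held CCGGAAG at 2 places, read here as CTTCCGG, its other strand. The Cox6a1 window held 1 such place and an overlapping pair of GCGCATGC matches, 1 on each strand. The window of Cox7a2 held none of the 4 motifs. Of 32851 promoters in the RefSeq table, 16.3% held CAGCTG, 8.86% CCGGAAG, 2.71% GCGCATGC and 4.72% AAGGTCA. Of 69 promoters of 64 member genes, the shares were 8.70%, 21.7%, 15.9% and 11.6% in the same order. A match describes letters in a window and was not set against any binding data.

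Complex I, which takes electrons from NADH, had the most members. Its median log2 ratio was 0.43 in C2C12-DF, with 33 of 35 probes above 0, and 0.12 in C2C12-W4-08, with 21 of 35 above 0. The 7 core subunits, which carry the flavin and the iron-sulfur clusters, had medians of 0.41 and -0.18, and the other subunits had 0.43 and 0.13. Among core subunits, Ndufs3 had signals of 583, 1041 and 501 in C2C12-PR, C2C12-DF and C2C12-W4-08, log2 ratios of 0.84 and -0.22. Ndufv2 had signals of 785, 1343 and 1228, log2 ratios of 0.77 and 0.65. Ndufs8 had 131, 173 and 230, log2 ratios of 0.41 and 0.82. Ndufs1, the largest core subunit, was instead lower on both arrays, with signals of 232, 189 and 167 and log2 ratios of -0.30 and -0.48. The core was thus not of one direction in C2C12-W4-08, with 3 subunits above and 4 below C2C12-PR.

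Among the other subunits of complex I, Ndufa13, also known as the cell death regulator GRIM-19, had the highest ratio in C2C12-DF, with signals of 779, 1544 and 668. Its log2 ratios were 0.99 and -0.22. Ndufa6 had log2 ratios of 0.86 and 0.48, and Ndufa7 had 0.68 and 0.88, the highest in C2C12-W4-08 among the probes of the complex detected on both arrays, which was 0.44 with print blocks centred and -0.058 with normexp. Ndufb11 differed between the arrays in the other way, with signals of 119, 119 and 48.1, so that it was level in C2C12-DF and 2.47-fold lower in C2C12-W4-08 (log2 ratio -1.30, or -0.92 with print blocks centred). Ndufb2 had signals of 264, 181 and 140, log2 ratios of -0.54 and -0.92, which shrank to -0.24 and -0.14 with print blocks centred. Ndufa1 was also lower in C2C12-W4-08, with a log2 ratio of -0.62 after 0.48 in C2C12-DF. Ndufs5, the only name with a pair of probes, had signals of 527, 782 and 523 at one and 336, 555 and 384 at the other. The log2 ratios were 0.57 and -0.011 at the first and 0.72 and 0.19 at the second. Ndufa12 had signals of 2785, 2904 and 2308, and log2 ratios of 0.060 and -0.27. Ndufc1 was undetected in C2C12-PR, and its signals of 3.26 and 5.87 on the other arrays give bounds of 0.26 and 1.11 on the log2 scale. Ndufa4, listed with complex I by its name and later assigned to complex IV, had log2 ratios of 0.17 and 0.64. The assembly factor Ndufaf1 had log2 ratios of 0.35 and -0.097.

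Complex II, which also works in the tricarboxylic acid cycle as succinate dehydrogenase, had the lowest median of the complexes in C2C12-DF, though not with normexp or the local background, where ATP synthase was lowest. The flavoprotein gene Sdha had signals of 367, 408 and 351, and the iron-sulfur subunit gene Sdhb had 253, 258 and 325. The membrane anchors Sdhc and Sdhd had signals of 334, 415 and 482, and of 535, 628 and 501. All 4 were above C2C12-PR in C2C12-DF, by 0.031 to 0.31 on the log2 scale with a median of 0.19. In C2C12-W4-08 Sdhb and Sdhc were above and Sdha and Sdhd below, with a median of 0.15.

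Complex III, which hands electrons from ubiquinol to cytochrome c, was the one complex whose median fell below 0 in C2C12-W4-08 with the processing given above. With loess the median was 0.033, and at signals of at least 20, which left Uqcrq out, it was -0.11. With normexp complex I, at -0.31, and ATP synthase, at -0.48, were below 0 too. In C2C12-DF all 6 probes detected on both arrays were higher than in C2C12-PR, with a median log2 ratio of 0.45. In C2C12-W4-08 the median was -0.26 and 3 of 7 were above 0. The hinge protein gene Uqcrh had signals of 981, 1614 and 571, log2 ratios of 0.72 and -0.78. The core protein gene Uqcrc2 had 899, 1124 and 530, log2 ratios of 0.32 and -0.76, and its fellow core protein gene Uqcrc1 had log2 ratios of 0.41 and -0.26. Uqcr, now named Uqcr11, was high on both, with signals of 688, 1108 and 1249 and log2 ratios of 0.69 and 0.86. Uqcrfs1, the Rieske iron-sulfur protein, had log2 ratios of 0.48 and 0.049, and 0.71 and 0.71 with print blocks centred. Uqcrb had log2 ratios of 0.34 and 0.082. Uqcrq lay at the lowest detected signal in C2C12-PR and was not detected in C2C12-DF, so its log2 ratio of -0.81 in C2C12-W4-08 has little weight, and it was 0.39 after loess. Cytochrome c itself, Cycs, had signals of 245, 223 and 357, log2 ratios of -0.14 and 0.54, the reverse order of Uqcrh and Uqcrc2.

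The remaining subunits of complex IV had log2 ratios from -0.40 to 0.80 in C2C12-DF. The complex without the muscle isoforms had a median log2 ratio of 0.47, with 11 of 13 probes above 0, and 0.21 in C2C12-W4-08, also with 11 of 13 above 0. Cox4i2 and the non-member of the complex Cox4nb were the 2 probes below 0 in C2C12-DF. Cox6c had the highest ratio after the muscle isoforms, with signals of 1855, 3228 and 2936 and log2 ratios of 0.80 and 0.66. Cox7b had signals of 2602, 3602 and 1689, log2 ratios of 0.47 and -0.62, the lowest of the complex in C2C12-W4-08. Cox5a and Cox5b, which sit on the matrix side, had log2 ratios of 0.41 and 0.52, and of 0.53 and 0.53. Cox6b1 had log2 ratios of 0.42 and 0.092, and Cox7c 0.44 and 0.45. Cox4nb had log2 ratios of -0.16 and 0.21.

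Apart from the muscle isoforms, ATP synthase had the highest median of the complexes in both comparisons over the probes taken by name. It was 0.51 in C2C12-DF with 15 of 16 probes above 0, and 0.30 in C2C12-W4-08 with 12 of 16 above 0. These probes include Atp5s, and those of complex IV include Cox4nb, neither of which is a subunit. At signals of at least 20, which left Atp5s out, ATP synthase and complex IV both had 0.47 in C2C12-DF. A rank of subunits alone was not computed, and the rank by name was not kept by all processing. In C2C12-DF ATP synthase had the lowest median with normexp (0.073) and the local background (0.32), and with print blocks centred it had 0.45 against 0.53 for complex IV. In C2C12-W4-08 its median was -0.48 with normexp, and complex IV was above it with print blocks centred, at 0.35 against 0.067. The catalytic F1 part had medians of 0.45 and 0.028 over 5 genes. Its alpha subunit gene Atp5a1 had signals of 525, 706 and 1084, log2 ratios of 0.43 and 1.05, and the second was 0.93 with print blocks centred. The beta subunit gene Atp5b had signals of 4719, 5506 and 4811, log2 ratios of 0.22 and 0.028. Atp5d, the delta subunit gene, had signals of 2838, 3868 and 1984, log2 ratios of 0.45 and -0.52. The alpha, beta and delta subunits work in one F1 unit, and their ratios in C2C12-W4-08 spanned from -0.52 to 1.05.

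The proton-carrying ring of ATP synthase is built from the c subunit, which 3 genes encode with the same mature protein. They did not run together in C2C12-DF. Atp5g1 had signals of 170, 124 and 206, log2 ratios of -0.46 and 0.27, and it was the single probe of the complex below 0 in C2C12-DF. Atp5g3 had signals of 3564, 5980 and 3243, log2 ratios of 0.75 and -0.14, and Atp5g2 had log2 ratios of 0.39 and 0.35. Atp5e had log2 ratios of 0.73 and 0.48. Of the subunits of stalk and membrane part, Atp5h had log2 ratios of 0.70 and 0.62, and Atp5l had 0.40 and -0.48. Atp5o, the stalk subunit that gives oligomycin sensitivity, had signals of 84.8, 96.9 and 144, log2 ratios of 0.19 and 0.76. Atp5c1 had log2 ratios of 0.47 and -0.18. Atp5s had signals of only 4.79, 12.4 and 18.4, log2 ratios of 1.37 and 1.94, which were 0.060 and 0.28 with normexp and -0.019 and 0.82 with the local background.

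The other genes of mitochondrial metabolism were set beside the chain by 6 lists. The 14 enzymes of the tricarboxylic acid cycle had a median log2 ratio of -0.052 in C2C12-DF with 6 above 0, and -0.00033 in C2C12-W4-08 with 7 above 0. None passed 2-fold in C2C12-DF, and Idh3g and Idh2, isocitrate dehydrogenases, were 2-fold lower in C2C12-W4-08 at -1.31 and -1.29. With print blocks centred these were -0.54 and -1.06, and with normexp -0.38 and -1.38, so Idh3g no longer passed. Mdh2, the malate dehydrogenase of the cycle, had log2 ratios of 0.29 and 0.73, and Sucla2, of succinate-CoA ligase, had 0.92 and 0.93. The 15 assembly factors with a probe had medians of 0.22 and 0.17, and none passed 2-fold. The copper chaperone Cox17 had log2 ratios of 0.49 and 0.42, and Surf1, an assembly factor of complex IV, had 0.58 and -0.35.

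Regulators of mitochondrial biogenesis were near the median probe: over the 13 detected on both arrays in each comparison, the median log2 ratios were -0.10 and 0.031, and none passed 2-fold. Tfam, the packaging and transcription factor of mitochondrial DNA, had signals of 230, 214 and 236. Ppargc1a, a coactivator of mitochondrial genes, was near the detection limit with signals of 4.37, 3.26 and 2.42. Nrf1, named above for its motif, had log2 ratios of -0.69 and 0.17.

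Carriers of the mitochondrial membranes had medians of 0.15 and -0.14 over 12 genes. Ucp2, an uncoupling protein homologue, had signals of 47.7, 101 and 8.88, log2 ratios of 1.08 and -2.42. Slc25a20, the carnitine carrier, had signals of 73.7, 107 and 12.8, with a log2 ratio of -2.53 in C2C12-W4-08. Slc25a4, the ADP/ATP carrier of heart and muscle, had 2491, 2962 and 1205, with log2 ratios of 0.25 and -1.05. These 3 carriers were the ones past 2-fold lower in C2C12-W4-08, and Ucp2 was the one past 2-fold higher in C2C12-DF. With normexp Ucp2 had 0.37 and -0.95 and Slc25a4 had -0.97 in C2C12-W4-08, all short of 2-fold.

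Fatty acid oxidation enzymes had medians of 0.14 and -0.15 over 14 genes, and Acadvl and Acaa2 were 2-fold lower in C2C12-W4-08 at -1.19 and -1.25. With print blocks centred these were -0.60 and -1.01, and with normexp -0.45 and -1.08, so Acadvl no longer passed. Hadh, of the same pathway, had log2 ratios of 0.32 and 0.85. Of the other electron carriers of the inner membrane, Cyc1, the cytochrome c1 of complex III that the name rule did not take in, had signals of 545, 513 and 864, log2 ratios of -0.087 and 0.66. The list had medians of -0.056 over 8 genes and 0.26 over 9 genes, and Cyct, past 2-fold lower in C2C12-W4-08, lay at the lowest detected signal of C2C12-PR. Beside these lists, the 73 subunits of the chain other than the muscle isoforms had a median of 0.44 in C2C12-DF, and 74 had 0.13 in C2C12-W4-08. The lists were not matched to the subunits for brightness. The 17 members with a mean signal between 100 and 500 had a median of only 0.15 in C2C12-DF, near that of the carriers and of fatty acid oxidation.

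**Figure D4:**
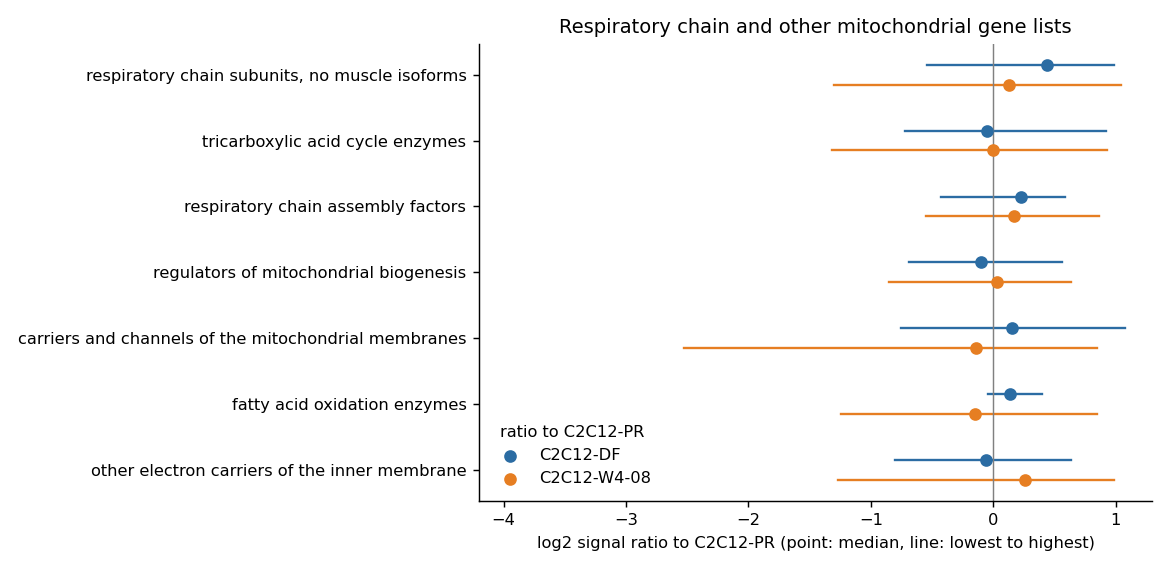
Median (point) and lowest to highest value (line) of the log2 ratio to C2C12-PR for the respiratory chain subunits without muscle isoforms and for 6 other lists of mitochondrial genes, with C2C12-DF in blue and C2C12-W4-08 in orange. The subunits have a median of 0.44 in C2C12-DF, against -0.10 to 0.22 for the other lists, and the ranges of all lists overlap. Lists and subunits were not matched for brightness.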

How the data were processed

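Total RNA of each condition had been amplified, labelled with Cy5 and hybridized to 1 mouse oligonucleotide array of 25392 spots. Scanner intensity values, deposited by the authors straight from the scans, comprised a spot median, a spot mean and a local background median, without subtraction or scaling. The deposited table of processed signals, also an intensity on a linear scale, has a column median of 25.0 for every array and is empty where a probe was not detected, and the background behind it is not given in the sources used here. It was used as an alternative only, and the data sheet of the paper's supplement was not used.

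From the spot median the blank mean was subtracted, 1 spot with a bad-quality mark in C2C12-DF was left out, and the remaining steps were as given above. A probe detected on 1 array of a pair gave a bound against the lowest detected signal of the other. No member spot was saturated. One scanner unit corresponded to 0.413, 0.457 and 0.431 of normalized signal in C2C12-PR, C2C12-DF and C2C12-W4-08, which limits dim probes. The methods name Isogen for RNA extraction and the labels another kit.

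The members, the lists and the rule for named genes were chosen with earlier results of these data known. The rule names the muscle isoforms and their partners, members past 2-fold, the 3 highest and 3 lowest ratios and the brightest and dimmest member of each complex, members with more than 1 probe or undetected on an array, and, of each list, those past 2-fold and up to 2 others. Ndufa4, Cox7c, Atp5g2, Atp5h and the list gene Nrf1 lie outside it and were chosen after their values were seen. Of the 81 names, 81 matched the GRCm38.p6 gene table, 4 of them under another current symbol. The alternatives were quantile and 75th percentile scaling, loess with a span of 0.3, normexp with an offset of 50, the local background, the spot mean, print block centring, the deposited table with and without rescaling, no detection rule, a signal of at least 20, each name once and a 1.5-fold mark. Added after seeing the data were a signal of at least 100, members without the 3 genes that are no subunits, members with renamed subunits, and loess with print block centring. Loess and normexp were run in limma 3.58.1 with R 4.3.3, and all else with pandas 2.3.3 and numpy 2.4.6 under Python 3.11.15. Simulated arrays with known ratios served to test the code.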

Additional observations from a re-analysis of the deposited data

How the results depend on the processing

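The median log2 ratio of the members in C2C12-DF stayed above 0 in all 16 alternatives, from 0.24 with normexp to 0.61 with the deposited table's own scaling. In C2C12-W4-08 it was -0.17 with normexp, 0.26 with the local background, 0.63 with quantile normalization, 0.70 with the 75th percentile and 0.69 with the deposited table's own scaling. Quantile normalization, the 75th percentile and that scaling also moved the median of all probes in C2C12-W4-08 to 0.78, 0.56 and 0.57, and relative to it the members stood at -0.15, 0.14 and 0.13. In C2C12-DF the own scaling moved all probes by 0.14. Without a detection rule all probes moved to -0.21 and -0.17. Members were thus below the median probe of C2C12-W4-08 with normexp and quantile normalization.

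Members at least 2-fold higher in C2C12-DF numbered 7 with the local background, 4 with the own scaling, 1 with the spot mean or without the genes that are no subunits, 0 at signals of at least 20 or 100, and 21 at 1.5-fold. Those 2-fold lower numbered 1 with normexp or the local background. In C2C12-W4-08, 2-fold higher were 13 with quantile normalization, 26 with the 75th percentile, 24 with the own scaling, 5 without a detection rule, 1 with the spot mean, print blocks centred, loess with print blocks centred or signals of at least 20 or 100, 0 with normexp and 12 at 1.5-fold. Lower were 10 with normexp, 5 with the local background, 2 with the rescaled deposited table or no detection rule, 0 with quantile normalization, the 75th percentile, the own scaling, print blocks centred or signals of at least 100, and 7 at 1.5-fold. For all probes, shares past 2-fold were not counted with the alternatives. Quantile normalization, the 75th percentile and the own scaling raised all probes in C2C12-W4-08, as given above. The counts with alternatives therefore cannot be read as a trait of the members.

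In C2C12-DF, the medians of complexes I, II, III, IV and ATP synthase were 0.61, 0.37, 0.58, 0.63 and 0.67 with the own scaling, and with normexp 0.26, 0.25, 0.24 and 0.073 for I, III, IV and ATP synthase. The local background gave 0.54, 0.51 and 0.32 for I, II and ATP synthase, loess 0.33 and 0.40 for IV and ATP synthase, and quantile normalization 0.41 for ATP synthase. In C2C12-W4-08 the 5 medians were 0.55, 0.55, 0.45, 0.84 and 0.69 with quantile normalization, 0.68, 0.71, 0.30, 0.77 and 0.86 with the 75th percentile, and 0.66, 0.66, 0.26, 0.89 and 0.83 with the own scaling. There normexp gave -0.31, -0.51 and -0.48 for I, III and ATP synthase, and the local background 0.69, -0.16, 0.75 and -0.027 for II, III, IV and ATP synthase. The spot mean gave -0.052, 0.42 and 0.43 and print block centring -0.41, 0.35 and 0.067 for III, IV and ATP synthase. Complex III was 0.033 with loess and -0.11 at signals of at least 20, and complex IV was 0.32 with the rescaled deposited table.

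The log2 ratio of Cox8b in C2C12-DF was 4.88 with quantile normalization, 2.06 with normexp, 3.82 with the local background and 4.46 with the rescaled deposited table. It was a bound of 0.89 with the spot mean and of 2.79 at signals of at least 20. In C2C12-W4-08 it was 2.16, 1.70, 0.17 and 0.42 with quantile normalization, the 75th percentile, normexp and the local background. For Cox6a2 the bounds in C2C12-DF were 2.73, 0.89 and 1.42 with quantile normalization, normexp and the local background. In C2C12-W4-08 they were 2.92, 2.27, 0.61 and 0.39 with quantile normalization, the 75th percentile, normexp and the local background. The deposited table holds a value for Cox6a2 in C2C12-PR and so gave ratios. In C2C12-DF these were 3.46 rescaled and 3.598 with the own scaling, and in C2C12-W4-08 2.77 and 3.33. Atp5s in C2C12-DF was -0.019 with the local background. Print block centring turned the direction of 0 of 77 members in C2C12-DF and of 12 of 78 in C2C12-W4-08. The cause of these differences was not tested beyond the values given. No paired analysis was possible because each condition had 1 array. Signal over background limits the 7 members with a signal under 20 on every array.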

Other observations

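Some respiratory chain genes stand on the array under an older clone name and so lay outside the name rule. Through the gene table, 11 such probes were found. Ndufv3, a small subunit of complex I, had signals of 227, 485 and 378 in C2C12-PR, C2C12-DF and C2C12-W4-08, log2 ratios of 1.10 and 0.74, the first of which would have been the highest of complex I. Atp5mpl, a small protein of ATP synthase, had log2 ratios of 0.67 and 0.38, and Uqcr10 of complex III had 0.37 and 0.045. Ndufa4l2 had log2 ratios of -0.17 and 0.41, and Cox7b2 was detected in C2C12-W4-08 only. Among assembly factors, Sdhaf3 had log2 ratios of 0.57 and 0.85, Sdhaf4 had 0.60 and -0.31, Sdhaf2 had -0.094 and -0.23, Ndufaf4 had -0.68 and 0.086, and Ndufaf7 had -0.18 and -0.094. Ndufaf5 was detected in C2C12-W4-08 only.

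The local background around bright spots followed the spot. Among spots with a median of at least 500 scanner units, it came to a median of 18.3% of the spot over 66 member spots in C2C12-PR, 35.5% over 64 in C2C12-DF and 41.1% over 65 in C2C12-W4-08, with 18.5%, 35.9% and 34.9% over all such spots. For single member spots it ran up to 83.2% in C2C12-W4-08. Whether this share accounts for the differences between the corrections was not tested. For C2C12-DF the members' median log2 ratio rose from 0.44 with the blank mean subtracted to 0.51 with the local background. The same change of background took the C2C12-W4-08 median from 0.14 to 0.26. With normexp both medians instead fell, to 0.24 and -0.17.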
